A study of Mus musculus with 4 samples.

Results

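Cytochromes P450 of family 2 (Cyp2) were examined in mouse liver on 2-colour microarrays. Every non-control probe whose gene name on the array begins with Cyp2, a subfamily letter and a number was taken, which gave 53 of 41174 probes, for 34 genes in 11 subfamilies out of 27962 gene names. The livers came from male C57BL/6 mice on a high-fat diet that received intraperitoneal injections of 25 mg/kg of an oligonucleotide, 2 a week for 4 weeks. One group is labelled with an antisense oligonucleotide against Plin2 (Plin2-ASO), the gene of a protein that coats lipid droplets. The other group received a scrambled control oligonucleotide. Each of 4 arrays held 1 liver of each group: Plin2-ASO mice 6, 7, 9 and 10 on arrays 1 to 4, in the Cy3 channel, against control mice 1, 2, 4 and 5, in the Cy5 channel. The dyes were not swapped, so a dye effect on a probe and the treatment cannot be told apart. The mice's age is not given in the sources used here, and there was no group without an oligonucleotide or on another diet.

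Cytochromes P450 are haem enzymes of the endoplasmic reticulum that insert 1 oxygen atom into a substrate and draw their electrons from the reductase Por. Those of family 2 handle drugs, steroids and fatty acids in the liver, and in rodents their genes were copied many times into tandem clusters. Several are known in mice for sex-biased expression set by the growth hormone rhythm, for induction through the nuclear receptor CAR, or for a place near the portal or the central vein.

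The copies are alike, and the probes show how far an array can tell them apart. Of 1378 pairs of Cyp2 probes, 3 pairs of probes for different genes shared at least 30 aligned bases with at least 80% identity. They are printed 5′ to 3′ with the bases that differ in capitals, because the results below set their genes side by side. Coordinates of probes are those of the array's annotation (mm7), and those of the promoter windows are on GRCm38.p6.

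The Cyp2a4 and Cyp2a5 probes share 38 aligned bases, of which 35 are identical (chr7:23212199-23212258 and chr7:23212221-23212279, plus strand):
Cyp2a4: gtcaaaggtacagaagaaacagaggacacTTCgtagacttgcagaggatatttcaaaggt
Cyp2a5: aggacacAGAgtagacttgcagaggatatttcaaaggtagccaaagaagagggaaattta

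The array's annotation places both at the same locus. The Cyp2c40 and Cyp2c54 probes share 46 aligned bases, of which 38 are identical (chr19:39680672-39696310 and chr19:39941403-39963984, minus strand, each across at least 1 intron, since the span exceeds the probe's 60 bases):
Cyp2c40: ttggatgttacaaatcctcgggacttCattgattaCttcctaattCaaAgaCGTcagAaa
Cyp2c54: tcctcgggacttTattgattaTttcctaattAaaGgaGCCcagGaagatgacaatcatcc

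The Cyp2j11 and Cyp2j13 probes share 30 aligned bases, of which 28 are identical (chr4:95690233-95690292 and, across at least 1 intron, chr4:95438221-95449204, minus strand):
Cyp2j11: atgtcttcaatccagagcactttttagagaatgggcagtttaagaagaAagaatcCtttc
Cyp2j13: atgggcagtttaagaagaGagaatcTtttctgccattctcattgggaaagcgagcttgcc

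Which member of such a pair, or which copy with no probe of its own, a signal came from is therefore uncertain.

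The targeted gene, Plin2, had no lower signal in any of the livers labelled Plin2-ASO than in its array's control liver. The Plin2 probe (chr4:86060498-86060557, named there by its older symbol Adfp) had log2 ratios, Plin2-ASO over control, of 0.24, 0.15, 0.83 and 0.36 on arrays 1 to 4. The mean of 0.40 ± 0.15 (SE, n = 4) had an adjusted p of 0.148 by limma. Where the oligonucleotide binds relative to this probe is not given in the sources used here. Directions below rest on the labels of the dyes, and all of them would be mirrored if the dyes or the livers were exchanged.

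Array 3 stood apart from the rest. Across probes, its mean correlation with the ratios of the remaining arrays was 0.33, while theirs were 0.52 to 0.65. Outlier spots by the scanner's software made up 7.61% of it and 1.5% to 3.83% of the remaining arrays, and its ratios had a correlation with probe GC content of -0.30, against 0.04 to 0.25. The median signal was 244 to 499 in the Plin2-ASO channel and 256 to 637 in the control channel, over a local background of 55 to 63.5, and no spot was saturated. Of the Cyp2 probes, 47 for 32 genes passed the filter, 46 of them well above background on at least 3 arrays in both channels. The 6 probes not tested were the sole probes of Cyp2c65 and Cyp2c66, genes known from the gut, 1 further probe each of Cyp2b19 and Cyp2g1, and 2 further probes of Cyp2j13.

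Hepatocyte markers were well above background, and some markers of other cell types differed between the groups. Over all probes tested 4.35% were higher and 5.64% lower. Of the 6 hepatocyte markers tested of 8, Alb (albumin) was 3.25-fold lower in the livers labelled Plin2-ASO (adjusted p = 0.00139) and Hpx 2.37-fold lower, while 4 did not pass. The log2 of the summed signal of this list was 18.47 to 18.77 in the livers labelled Plin2-ASO and 18.86 to 19.32 in control livers. Here and in the ranges below, a gene dropped as an outlier on an array is missing from both sums of that array. This holds for Ttr and Clec4f on array 1, Hpx on array 2, and Col1a2, Marco and Krt7 on array 3. Ends of those ranges can therefore rest on fewer genes. All 5 stellate cell markers were lower, with log2 summed signals of 15.01 to 15.49 in the livers labelled Plin2-ASO and 16.41 to 17.41 in control livers. Of the macrophage markers 3 of 6 were higher and 2 lower (15.19 to 16.25, against 15.91 to 16.67 in control livers). Of the endothelial markers 2 of 5 were lower (11.97 to 12.42, against 12.50 to 12.81 in control livers), as were 2 of 4 tested for bile duct cells (12.85 to 13.63, against 14.53 to 15.41 in control livers). None of the 3 lymphocyte markers passed by limma, 1 being lower at an unadjusted p under 0.05 (10.31 to 10.59, against 10.63 to 11 in control livers), and 1 of 4 adipocyte markers was higher (10.41 to 14.64, against 9.85 to 10.15 in control livers). The top of the adipocyte range was the Plin2-ASO liver of array 3. Its log2 ratios were 4.10 for Adipoq, 1.96 for Plin1, 6.45 for Cfd and -0.13 for Lep. With any 1 array left out the calls of Alb, Clec4f, Vsig4, Cd68, Spp1, Col1a1 and Col3a1 held, and each of the other marker calls ended without array 1, 2 or 4 (adjusted p up to 0.275). The part of these differences in the Cyp2 results was not tested, and in pieces of whole liver fewer cells of a type and less RNA per cell cannot be told apart.

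More Cyp2 probes were higher than lower in the livers labelled Plin2-ASO. By limma with Benjamini-Hochberg adjustment over all 25843 probes tested, 14 Cyp2 probes for 12 genes were higher (29.8%), against a background of 4.35% of all probes. Another 3 probes for 2 genes were lower (6.38%), near the background of 5.64%, and 30 did not pass. The median log2 ratio of the 47 probes was 0.46, against -0.01 over all probes tested, and it was 0.40, 0.56, 0.29 and 0.36 on arrays 1 to 4. On 17 Cyp2 probes (36.2%) all 4 livers labelled Plin2-ASO lay above all control livers, against 7.76% of all probes, and on 6 probes (12.8%) they lay below, against 9.76%. Leaving out arrays 1 to 4 in turn gave 6, 6, 21 and 15 higher probes and 1, 0, 7 and 2 lower probes by limma. Of all probes tested, these fits called 2.2%, 1.97%, 33.2% and 5.54% in the same order, against 9.99% with all 4 arrays. With array 2 left out, 8 Cyp2 probes had a negative ratio and an unadjusted p under 0.05.

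**Figure D1:**
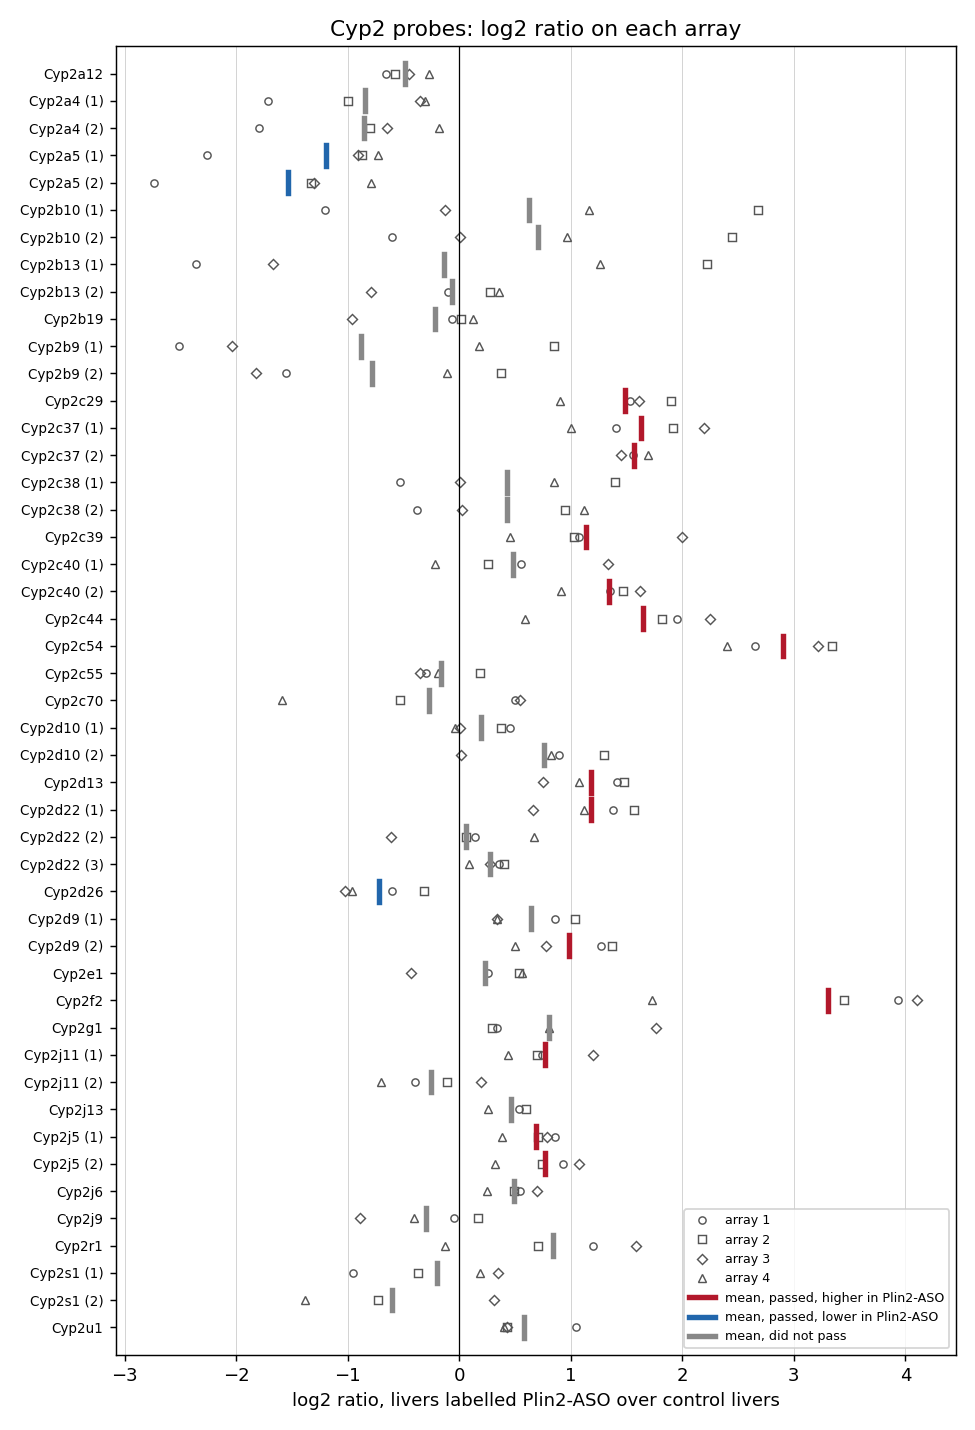
Log2 ratio, livers labelled Plin2-ASO over control livers, of each of the 47 Cyp2 probes tested. Marker shapes are the 4 arrays, the bar is their mean, coloured by whether the probe passed, and a number after a gene tells its probes apart. Cyp2f2 and the Cyp2c genes reach the highest ratios, the 5 Cyp2a probes lie below 0 on every array, and the points of Cyp2b9, Cyp2b10 and Cyp2b13 spread to both sides of 0.

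Cyp2f2 had the highest mean ratio of the 47 probes. It is the sole member of its subfamily here, an enzyme of hepatocytes near the portal vein and of lung club cells that activates naphthalene. Its probe is shown for that reason (chr7:24052410-24052469, plus strand):
Cyp2f2: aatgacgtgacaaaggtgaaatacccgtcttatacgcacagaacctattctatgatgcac

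The log2 level of Cyp2f2 was 16.62, 16.08, 17.04 and 15.93 in the livers labelled Plin2-ASO and 12.69, 12.63, 12.94 and 14.20 in control livers, on arrays 1 to 4. The groups did not overlap, and the control liver of array 4 was the highest of its group. The log2 ratio of 3.30 ± 0.37 (SE, n = 4; 95% interval 2.45 to 4.15; adjusted p = 0.00328) is a 9.86-fold higher signal.

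The Cyp2c genes held 7 of the 14 higher calls. They were 58.3% of the 12 Cyp2c probes tested, against 4.35% of all probes. No Cyp2c probe was lower by limma or at an unadjusted p under 0.05. On each of the 7 all livers labelled Plin2-ASO lay above all control livers, as on 7.76% of all probes. The 7 probes measure 6 of the 9 Cyp2c genes tested. The median log2 ratio of the 12 probes was 1.24, and 1.21, 1.40, 1.53 and 0.88 on arrays 1 to 4. These enzymes oxidise arachidonic and linoleic acid, retinoids and drugs, and Cyp2c29, Cyp2c37 and Cyp2c54 are among the genes induced through CAR.

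Cyp2c54 read 13.42, 13.54, 13.23 and 12.97 in the livers labelled Plin2-ASO, against 10.76, 10.20, 10.01 and 10.57 in control livers (log2 level). These sets lie more than 2 log2 units apart. The ratio was 2.90 ± 0.19 (SE; 95% interval 2.47 to 3.34; adjusted p = 0.000977), or 7.48-fold higher. Cyp2c37 had log2 levels of 14.09, 14.03, 13.93 and 13.51 in the livers labelled Plin2-ASO, against 12.69, 12.12, 11.74 and 12.52 in control livers, a 3.09-fold difference (ratio 1.63 ± 0.21, adjusted p = 0.00503). Its second probe, measured on 3 arrays, gave 2.96-fold (1.57 ± 0.15, adjusted p = 0.00356), so the probes of Cyp2c37 differed by less than their errors.

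Cyp2c29 is shown as a known target of CAR (chr19:39222926-39222985, plus strand):
Cyp2c29: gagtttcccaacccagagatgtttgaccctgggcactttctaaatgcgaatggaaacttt

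Cyp2c29 had log2 levels of 16.94, 16.89, 17.46 and 16.54 in the livers labelled Plin2-ASO, against 15.41, 14.99, 15.85 and 15.63 in control livers. The lowest liver labelled Plin2-ASO exceeded every control liver, and the ratio was 1.49 ± 0.18 (SE; adjusted p = 0.00423). Cyp2c55, also known to be induced through CAR, had a ratio of -0.16 ± 0.14 that did not pass (adjusted p = 0.507).

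Cyp2c44 (now Cyp2c23), an epoxygenase of arachidonic acid, lies on the same chromosome apart from the cluster (chr19:43898918-43898977). Its log2 levels were 14.40, 13.81, 14.35 and 13.62 in the livers labelled Plin2-ASO, against 12.45, 12, 12.10 and 13.04 in control livers, a 3.14-fold difference (1.65 ± 0.26, adjusted p = 0.0107). On array 4 the difference was 0.59, the smallest of the 4. Cyp2c39, which hydroxylates retinoic acid, had log2 levels of 12.98, 13.15, 13.46 and 12.81 in the livers labelled Plin2-ASO, against 11.90, 12.12, 11.47 and 12.36 in control livers (1.14 ± 0.24, adjusted p = 0.0263). Both calls ended without array 1 (adjusted p = 0.0642 for Cyp2c44 and 0.117 for Cyp2c39) and without array 2 (0.0697 and 0.122).

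Cyp2c40, a female-biased enzyme in mice, gave different values on its probes. The probe aligned above with Cyp2c54 had log2 levels of 14.46, 14.10, 14.33 and 13.86 in the livers labelled Plin2-ASO, against 13.10, 12.63, 12.71 and 12.95 in control livers (1.34 ± 0.15, adjusted p = 0.00374). The other, which lies in 1 stretch (chr19:39661106-39661165, minus strand), had ratios of 0.56, 0.26, 1.34 and -0.22 on arrays 1 to 4 and did not pass (0.48 ± 0.24, 95% interval -0.08 to 1.04, adjusted p = 0.239):
Cyp2c40, other probe: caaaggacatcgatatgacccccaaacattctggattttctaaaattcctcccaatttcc

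The remaining Cyp2c genes did not pass. Cyp2c38 had 0.43 ± 0.30 and 0.43 ± 0.26 on its probes (adjusted p = 0.392 and 0.328). Cyp2c70, which makes the muricholic bile acids of mice, had ratios of 0.50, -0.53, 0.54 and -1.59 (mean -0.27 ± 0.34, 95% interval -1.07 to 0.53, adjusted p = 0.662). Its probe lies 83.3 kb from that of Cyp2c54, which lies 35.6 kb from the nearer probe of Cyp2c37.

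**Figure D2:**
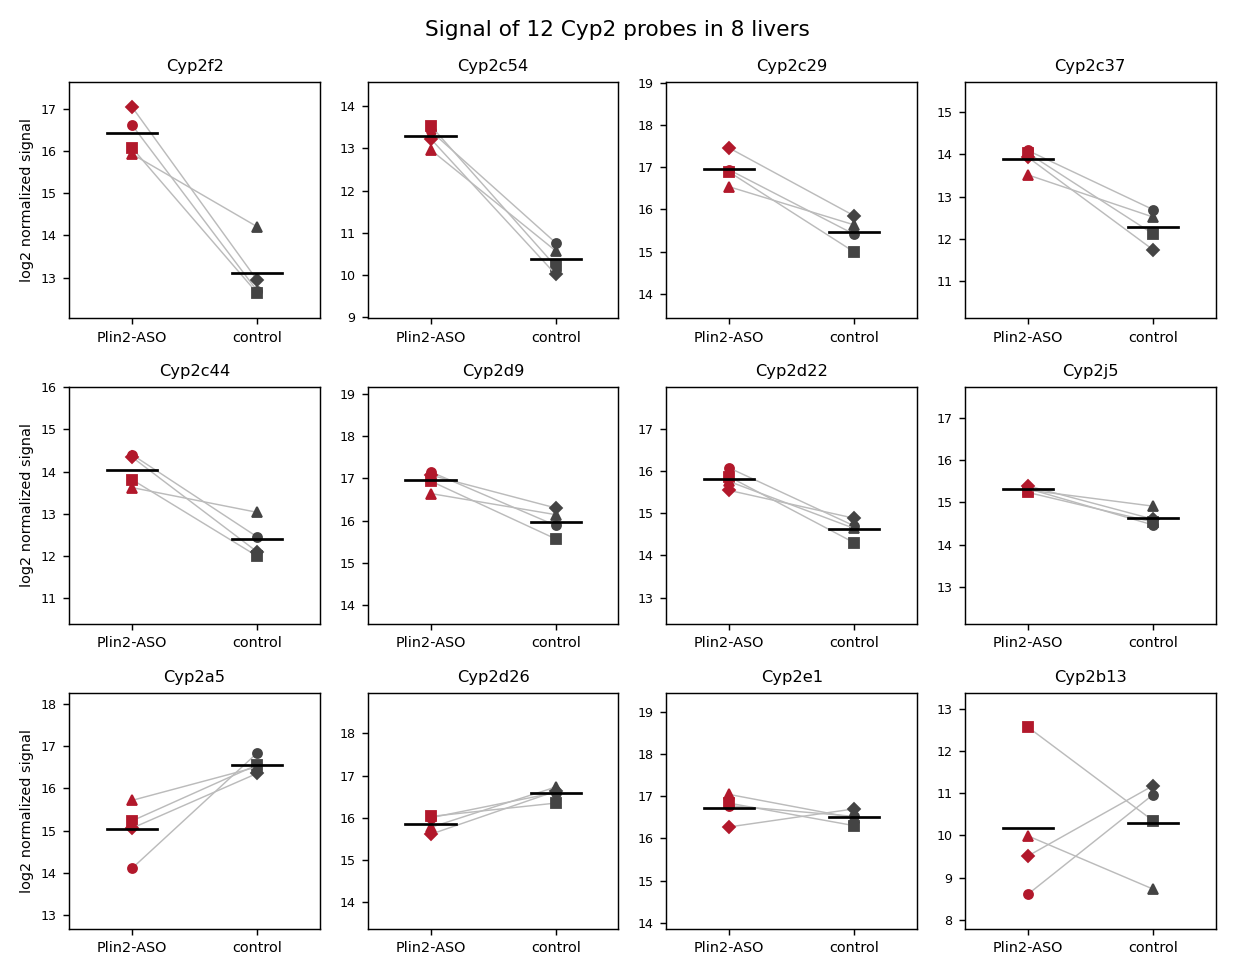
Log2 normalised signal per liver for Cyp2 probes described in the text, with livers labelled Plin2-ASO left of control livers in each panel. Marker shapes and grey lines join the pair on 1 array, black bars are group means, and every panel spans the same number of log2 units. The groups are apart for Cyp2f2 and Cyp2c54, and the lines of Cyp2b13 run in both directions.

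The Cyp2d genes on chromosome 15 went both ways. Of 9 probes tested for 5 genes, 3 were higher (33.3%) and 1 was lower, against 4.35% and 5.64% of all probes. Cyp2d22 read 16.07, 15.87, 15.54 and 15.75 in the livers labelled Plin2-ASO, against 14.70, 14.30, 14.88 and 14.64 in control livers (1.18 ± 0.17, 2.27-fold, adjusted p = 0.0083). Its other probes did not pass, with 0.06 ± 0.21 and 0.28 ± 0.13. Cyp2d13 read 12.62, 12.50, 12.42 and 13.10 in the livers labelled Plin2-ASO, against 11.21, 11.03, 11.67 and 12.03 in control livers (1.18 ± 0.16, adjusted p = 0.00649). On the probes that passed, the groups did not overlap for either gene.

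Cyp2d9, a male-biased enzyme that hydroxylates testosterone, has probes that share 27 bases, given in capitals (chr15:82540764-82540823 and chr15:82540797-82540856, plus strand):
Cyp2d9, upstream probe: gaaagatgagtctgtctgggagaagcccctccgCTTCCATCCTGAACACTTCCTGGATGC
Cyp2d9, downstream probe: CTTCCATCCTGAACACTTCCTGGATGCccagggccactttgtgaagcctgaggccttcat

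On the upstream probe, log2 levels were 17.16, 16.94, 17.08 and 16.64 in the livers labelled Plin2-ASO, against 15.89, 15.57, 16.30 and 16.14 in control livers (0.98 ± 0.18, 1.97-fold, adjusted p = 0.017). The downstream probe had ratios of 0.86, 1.04, 0.33 and 0.34 and missed the threshold (0.64 ± 0.17, adjusted p = 0.0529). Both probes had a positive ratio on every array.

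Cyp2d26 was lower in the livers labelled Plin2-ASO, at 16, 16.03, 15.61 and 15.77, against 16.60, 16.35, 16.63 and 16.73 in control livers. The ratio was -0.72 ± 0.16 (SE; adjusted p = 0.0322), or 1.65-fold lower. Of Cyp2d10, 1 probe had 0.20 ± 0.14 (adjusted p = 0.419) and the other 0.76 ± 0.21 (adjusted p = 0.0629). The Cyp2d calls ended without array 1 (adjusted p = 0.0625 for Cyp2d22, 0.0524 for Cyp2d13, 0.114 for Cyp2d9 and 0.147 for Cyp2d26) and without array 2 (0.0640, 0.0555, 0.114 and 0.0792 in the same order), and that of Cyp2d26 also without array 4 (0.110).

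Of the Cyp2a genes, Cyp2a5 was lower in the livers labelled Plin2-ASO, while Cyp2a4 and Cyp2a12 did not pass. On all 5 probes, for 3 genes, the livers labelled Plin2-ASO lay below all control livers, as on 9.76% of all probes. The probes of Cyp2a4 and Cyp2a5 are placed at the same locus, so the 5 are not independent. By limma 2 probes passed, both of Cyp2a5, where 5.64% of all probes were lower. The enzyme of Cyp2a5 hydroxylates coumarin and oxidises bilirubin. On the probe printed here, Cyp2a5 read 14.10, 15.23, 15.06 and 15.71 in the livers labelled Plin2-ASO, against 16.84, 16.56, 16.36 and 16.51 in control livers (-1.54 ± 0.29, 95% interval -2.22 to -0.86, 2.91-fold lower, adjusted p = 0.0196; chr7:23212159-23212218, plus strand):
Cyp2a5: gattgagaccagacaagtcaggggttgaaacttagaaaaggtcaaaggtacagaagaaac

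The Plin2-ASO liver of array 1 was the lowest. The probe of Cyp2a5 aligned above with Cyp2a4 read 14.67, 15.72, 15.64 and 16.12 in the livers labelled Plin2-ASO, against 16.93, 16.59, 16.55 and 16.84 in control livers, which was 2.29-fold lower (-1.19 ± 0.26, adjusted p = 0.0297). Cyp2a4, female-biased in mice and a testosterone hydroxylase, had -0.84 ± 0.24 and -0.86 ± 0.25 on its probes and did not pass (adjusted p = 0.0707 and 0.071). Cyp2a12, also a testosterone hydroxylase, had ratios of -0.65, -0.57, -0.45 and -0.27 (mean -0.49 ± 0.13, adjusted p = 0.0589). Both Cyp2a5 calls ended without array 2 (adjusted p = 0.0877 for the printed probe and 0.106 for the other), and the other's also without array 1 (0.0747). With the scanning software's own ratios they missed the threshold at 0.0512 and 0.0570, and with the series table's at 0.0535 and 0.0602.

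The Cyp2b genes did not pass in either direction by limma, none of 7 probes having an unadjusted p under 0.05. Cyp2b10, the gene most used as a readout of CAR, had log2 levels of 7.40, 11.47, 8.90 and 9.38 in the livers labelled Plin2-ASO, against 8.61, 8.79, 9.03 and 8.22 in control livers. The Plin2-ASO liver of array 2 was the highest of all and that of array 1 the lowest. This probe was well above background in only 3 livers labelled Plin2-ASO. The lowest level well above background in that channel of array 1 was 7.25, so its ratio there rests on a level near background. The mean ratio was 0.63 ± 0.54 (adjusted p = 0.503), and 0.70 ± 0.44 on the other probe (adjusted p = 0.343).

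Cyp2b13, female-biased in mice, had log2 levels of 8.60, 12.57, 9.51 and 9.99 in the livers labelled Plin2-ASO, against 10.96, 10.35, 11.18 and 8.73 in control livers on its first probe. The interval of its mean ratio, -1.80 to 1.53, is wide. The second probe had a narrower spread of ratios, at -0.10, 0.27, -0.79 and 0.36. The sequences are shown because the probes of 1 gene differed so (chr7:22986378-22992433, across at least 1 intron, and chr7:22992625-22992684, plus strand):
Cyp2b13, first probe: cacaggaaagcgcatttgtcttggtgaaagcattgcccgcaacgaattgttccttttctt
Cyp2b13, second probe: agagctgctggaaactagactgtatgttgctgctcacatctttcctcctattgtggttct

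Cyp2b9, also female-biased, read 7.42, 9.75, 7.91 and 8 in the livers labelled Plin2-ASO, against 9.93, 8.91, 9.95 and 7.82 in control livers. The highest levels were those of the control livers of arrays 1 and 3. Both Cyp2b9 probes were well above background in only 3 livers labelled Plin2-ASO, and the 7.42 of array 1 is near background. Cyp2b19, known from skin, had -0.22 ± 0.20. On arrays 1 to 4 the median of the Cyp2b probes was -1.21, 0.85, -0.96 and 0.36.

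Cyp2e1, which oxidises ethanol, acetone and acetaminophen near the central vein, did not pass. Its log2 levels were 16.78, 16.84, 16.27 and 17.04 in the livers labelled Plin2-ASO, against 16.52, 16.30, 16.70 and 16.48 in control livers (0.23 ± 0.19, 95% interval -0.21 to 0.67, adjusted p = 0.476). Array 3 alone had the Plin2-ASO liver below its control, and without array 3 the ratio of 0.45 passed (adjusted p = 0.0239).

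The Cyp2j genes, which make epoxides from arachidonic acid, were higher on 3 of 7 probes tested (42.9%), for 2 of 5 genes. Of all probes tested 4.35% were higher. Cyp2j5, a liver and kidney epoxygenase, read 15.33, 15.24, 15.39 and 15.30 in the livers labelled Plin2-ASO, against 14.47, 14.54, 14.60 and 14.91 in control livers (0.68 ± 0.14, 1.61-fold, adjusted p = 0.0242). Its second probe gave 0.77 ± 0.16. Cyp2j11 was the only one of 14 genes with 2 or more tested probes whose probes had mean ratios of opposite sign. The probe aligned above read 10.26, 10.35, 10.57 and 10.11 in the livers labelled Plin2-ASO, against 9.52, 9.65, 9.36 and 9.68 in control livers (0.77 ± 0.16, adjusted p = 0.0254). The other had -0.25 ± 0.17 (adjusted p = 0.38). Cyp2j13, Cyp2j6 and Cyp2j9 did not pass, with 0.46 ± 0.16 on 3 arrays, 0.49 ± 0.13 and -0.29 ± 0.19. The Cyp2j calls ended without array 1 (adjusted p = 0.173 and 0.166 for the probes of Cyp2j5 and 0.142 for Cyp2j11) and without array 2 (0.149, 0.145 and 0.135).

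The single-gene subfamilies other than Cyp2f2 did not pass. Cyp2r1, a vitamin D hydroxylase, had ratios of 1.2, 0.71, 1.58 and -0.13 (0.84 ± 0.26, 95% interval 0.22 to 1.46, adjusted p = 0.0891). Cyp2u1, a fatty acid hydroxylase, had 1.05, 0.43, 0.43 and 0.40 (0.58 ± 0.16, adjusted p = 0.0599). Cyp2s1 had -0.20 ± 0.22 and, on 3 arrays, -0.60 ± 0.31. Cyp2g1, known from the olfactory lining, was not well above background in any control liver and was above it in 3 livers labelled Plin2-ASO and did not pass (adjusted p = 0.0852). Without array 3, 33.2% of all probes tested passed, against 9.99% with all 4 arrays. In that fit 11 Cyp2 probes that had missed the threshold passed it. Among them were those of Cyp2u1 (adjusted p = 0.0152), Cyp2a12 (0.0179) and the downstream one of Cyp2d9 (0.00754). Cyp2g1 was another, but it met the filter through the Plin2-ASO channel only, so its p was not interpreted.

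By position, neighbours in a cluster did not all move alike. The Cyp2c probes other than that of Cyp2c44 lie within 1240.2 kb of chromosome 19, and the higher calls there are those of Cyp2c29, Cyp2c39, Cyp2c40, Cyp2c37 and Cyp2c54, with Cyp2c38 among them and Cyp2c70 and Cyp2c55 at the ends not past the threshold. On chromosome 7 the Cyp2a, Cyp2b, Cyp2f, Cyp2g and Cyp2s probes lie within 1476 kb. There the probe of Cyp2f2, at 3.30, lies 97 kb from that of Cyp2a12, at -0.49. The Cyp2d probes lie within 419 kb of chromosome 15 and the Cyp2j probes within 584 kb of chromosome 4.

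**Figure D3:**
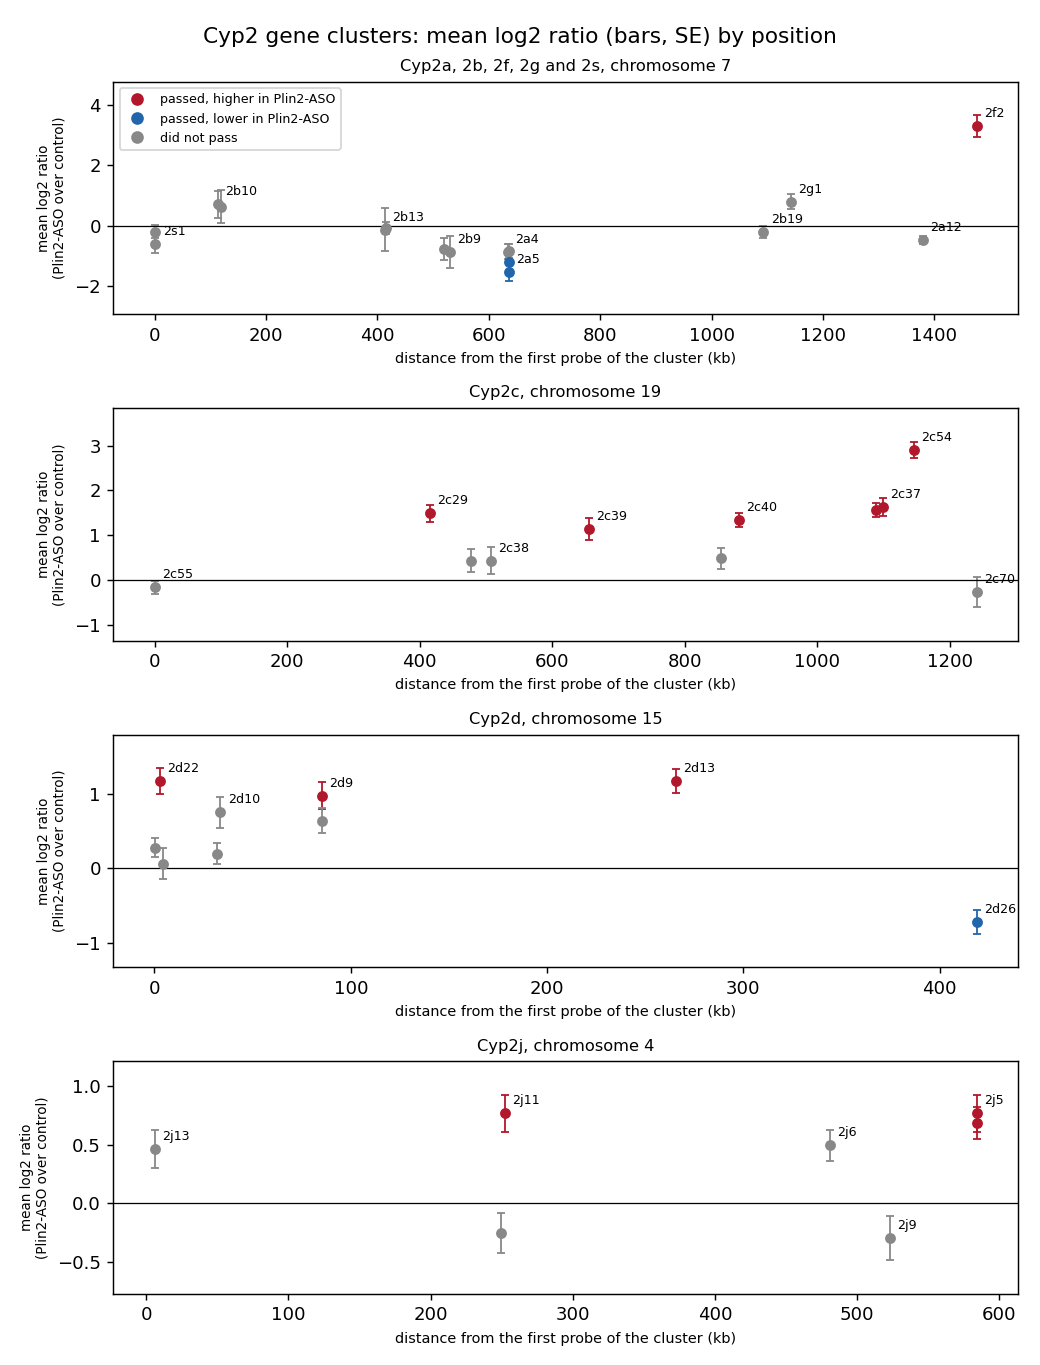
Mean log2 ratio, Plin2-ASO over control, of the tested Cyp2 probes against their distance in kb from the first probe of each cluster, with bars for the standard error and colours for whether the probe passed. Higher calls lie on the chromosome 19 cluster between probes that did not pass, and on chromosome 7 the probe of Cyp2f2 stands far above its neighbours.

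The windows around the gene starts were searched for letters that liver factors are known to bind. RefSeq promoter sequences (GRCm38.p6, 250 bases before to 50 after the start) were matched for 28 of the 34 Cyp2 symbols. The HNF4A letters CAAAGTCCA, on either strand, were in 3 of 28 Cyp2 genes (10.7%), namely Cyp2c65, Cyp2c40 and Cyp2c70, against 0.555% of 27025 genes. All 3 lie in the Cyp2c cluster of chromosome 19, so they are related copies and not independent. Of these Cyp2c40 was higher on 1 probe, Cyp2c70 did not pass and Cyp2c65 was not tested. The STAT5 letters TTCNNNGAA were in 1 (3.57%), Cyp2j11, against 9.55%. Direct repeats of AGGTCA or of TGAACT with 4 letters of any kind between were in none, against 0.015% each. A match is a description of letters, and no match says only that they are not in this window. The windows of Cyp2c40 and Cyp2c70 are printed with the HNF4A letters in capitals, 45 and 64 bases before the start, as a pair with the same letters and different ratios (chr19:39812765-39813064 and chr19:40187237-40187536, minus strand):
Cyp2c40: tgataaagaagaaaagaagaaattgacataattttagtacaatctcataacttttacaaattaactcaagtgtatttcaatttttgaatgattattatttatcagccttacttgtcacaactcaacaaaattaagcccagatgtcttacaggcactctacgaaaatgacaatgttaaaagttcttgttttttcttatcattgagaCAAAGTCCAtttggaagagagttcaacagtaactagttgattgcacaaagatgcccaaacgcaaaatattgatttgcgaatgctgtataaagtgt
Cyp2c70: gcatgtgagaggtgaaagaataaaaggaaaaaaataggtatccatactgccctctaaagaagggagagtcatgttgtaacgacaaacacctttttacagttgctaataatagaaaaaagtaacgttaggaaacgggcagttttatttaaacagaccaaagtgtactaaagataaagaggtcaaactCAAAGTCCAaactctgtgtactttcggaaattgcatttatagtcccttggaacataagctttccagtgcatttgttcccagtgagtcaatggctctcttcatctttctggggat

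Genes that serve or control these enzymes were read from lists. Of all probes tested, 4.35% were higher and 5.64% lower. Of 16 genes of electron supply and haem tested of 17, 1 was higher, near that background, and none lower by limma, with a median ratio of 0.17. At an unadjusted p under 0.05, 5 were higher and 1 lower. The share of all probes at that p is not given here. The gene that passed was Alad, an enzyme of haem synthesis (0.74 ± 0.18, adjusted p = 0.0433). Por, the electron donor, had -0.18 ± 0.13 (adjusted p = 0.428), a value singled out after it was seen. Of 31 regulators tested of 33, 4 were higher and none lower by limma, with a median of 0.21. At an unadjusted p under 0.05, 12 were higher and none lower. Ghr, the growth hormone receptor, was 2.09-fold higher (1.06 ± 0.18, adjusted p = 0.0122) and Onecut1, a hepatocyte transcription factor, 3.41-fold (1.77 ± 0.34, adjusted p = 0.0201). Nr0b2, a repressor of bile acid synthesis, was also higher (adjusted p = 0.0486). Nr1i3, the gene of CAR, singled out after its values were seen, had ratios of 0.67, 1.46, 0.15 and 1.92 and did not pass (1.05 ± 0.28, adjusted p = 0.0563). The calls of Alad, Ghr, Onecut1 and Nr0b2 ended without array 1 (adjusted p = 0.13, 0.0836, 0.0948 and 0.171) and without array 2 (0.228, 0.0744, 0.115 and 0.256). Those of Alad and Nr0b2 ended also without array 4 (0.141 and 0.102).

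Lists of genes expressed near the central and the portal vein, without the Cyp2 genes, each went both ways, where 4.35% of all probes were higher and 5.64% lower. Of 18 pericentral genes tested of 19, 5 were higher and 3 lower, with a median ratio of 0.18. Cyp1a2, 1 of the 5 higher, is counted again among the P450 of families 1, 3 and 4 below. Slc1a2, a glutamate carrier, was 2.27-fold higher (1.19 ± 0.12, adjusted p = 0.00263), although another of its 4 probes had the opposite sign. Oat, which degrades ornithine, was 2.89-fold higher, and Slc1a4, a carrier of neutral amino acids, was 2.27-fold lower (-1.18 ± 0.16, adjusted p = 0.00704). The other lower genes were Lect2 and Sp5, named after their values were seen, at -0.55 ± 0.13 and -0.76 ± 0.19. Without array 1 their adjusted p was 0.162 and 0.235. Of 18 periportal genes tested of 20, 4 were higher and 2 lower, with a median of -0.13. Uroc1, which degrades histidine, was 3.31-fold higher (1.73 ± 0.14, adjusted p = 0.00126), G6pc, the glucose-releasing phosphatase, 1.93-fold higher and Cdh1 (E-cadherin) 2.09-fold lower. The calls of Slc1a2, Oat, Slc1a4 and Uroc1 held with any 1 array left out, while those of G6pc and Cdh1 ended without array 1 (adjusted p = 0.065 and 0.0566) and without array 2 (0.064 and 0.0734). Over all probes tested the median was -0.01.

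Cytochromes P450 of families 1, 3 and 4 went both ways in equal numbers. Of 19 genes tested of 20, 4 were higher and 4 lower, where 4.35% of all probes were higher and 5.64% lower. Their median ratio was -0.07 with 1 probe per gene. For the Cyp2 family it was 0.46 over all 47 probes and 0.49 with the brightest probe of each gene. This difference of medians was not tested. Cyp4f13 was 2.57-fold higher (1.36 ± 0.14, adjusted p = 0.00253), Cyp4f14, which inactivates leukotrienes, 3.06-fold higher and Cyp1a2, which oxidises caffeine, 4.43-fold higher on 3 arrays. Cyp4v3 was also higher, and the 4 lower genes, named after their values were seen, were Cyp3a11, Cyp3a16, Cyp3a41a and Cyp3a44. Without array 1 the calls of Cyp4f14, Cyp4v3, Cyp3a11 and Cyp3a16 ended (adjusted p = 0.0587, 0.113, 0.18 and 0.138).

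**Figure D4:**
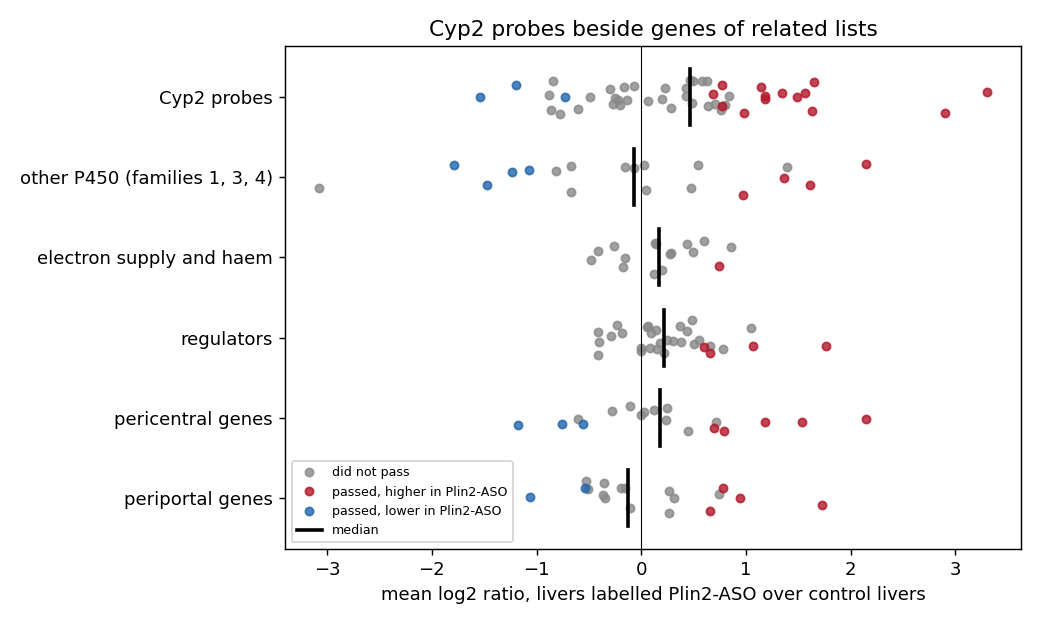
Mean log2 ratio, livers labelled Plin2-ASO over control livers, of each tested Cyp2 probe in the top row and of each tested gene of the other P450, electron supply, regulator, pericentral and periportal lists below it, with a black bar at each median and colours for whether it passed. The Cyp2 median of 0.46 lies to the right of the medians of the 5 lists drawn, which run from -0.13 to 0.21. Cyp1a2 is drawn in both the other P450 row and the pericentral row.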

How the data were processed

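The files give mean signal intensities and local background per spot in each channel, deposited by the authors as scanned. Per the file headers they come from Feature Extraction 9.5.1.1, which also wrote a log10 ratio, red over green. The series table deposited by the authors holds log2 ratios that equal these within 1e-6 for 99.4% of probes on each array, in the same direction and with a median of 0.

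Here the background was corrected by normexp with an offset of 50 and arrays were normalised by loess (limma 3.58.1, R 4.3.3). Control spots had weight 0, outlier spots were dropped and spots of a probe averaged. Probes well above background on 3 of 4 arrays in 1 channel and measured on at least 3 arrays were tested. Of 27160 probes kept by the filter, 1317 were measured on too few arrays, which left 25843. The log2 ratio, Plin2-ASO over control, was tested against 0 with lmFit and eBayes, two-sided, and called at a Benjamini-Hochberg adjusted p under 0.05. Levels are log2 signals per channel after loess and Aquantile, comparable between livers on 1 probe only. The 4 arrays limit the precision. Names of the Cyp2 members are the array's own. Plin2 and the genes of the lists carry current symbols, matched by accession, symbol or older symbol. Where a listed gene had several probes, 1 stood for it.

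The Cyp2 members and the lists were chosen with earlier results of these data known. Named were Plin2, the Cyp2 genes that passed or carry a role named above, those whose probes disagreed, and from each other list up to 3 genes with the smallest p among those past the threshold. Cyp2c50 and Cyp2c69 were not analysed here, and 1 regulator that passed and 1 promoter motif are not reported here.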

Additional observations from a re-analysis of the deposited data

Results flagged for a closer look

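On 2 of the 44 Cyp2 probes measured on all 4 arrays, 1 array lay far from the other 3, beyond the 95% critical value of Dixon's test. Chance does so in about 1 in 20 groups of this size. On the Cyp2a5 probe aligned with Cyp2a4, array 1 had a log2 ratio of -2.26, against -0.91 to -0.73 on the others. On the Cyp2u1 probe, array 1 had 1.05, against 0.40 to 0.43.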

How the results depend on the processing

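The 14 higher Cyp2 probes became 24 with array quality weights, which called 38.6% of all probes, against 9.99% without them. They became 6 to 21 with 1 array left out. The 3 lower ones became 0 with the scanning software's ratios and 0 with the series table's (by limma, where 5 were lower at an unadjusted p under 0.05 in both), 6 with separate channels, 5 with no replicate block (the channels as independent samples, where 16 were higher), 1 with eBayes trend and robust, 8 with array quality weights, 6 at an adjusted p under 0.1 and 0 to 7 with 1 array left out. Each array pairs 1 mouse of each group by hybridisation only, and the labels give no other pairing. The cause of these shifts was not tested. Under the other alternatives both counts stayed within 1.5 times. The ratio of Plin2 stayed above 0 and did not pass under any alternative. Calls of Cyp2f2, Cyp2c54, Cyp2c29, Cyp2c37 and the Cyp2c40 probe aligned with Cyp2c54 held under every alternative that tested them, and no call reversed. Of the 30 probes that did not pass, 7 changed sign under some alternative. Cyp2j5's first probe missed the threshold with median centring (adjusted p = 0.0678), and Cyp2d26 and the aligned Cyp2a5 probe did so with trend and robust (0.0607 and 0.0528). Over all probes the calls numbered 2582, and 578, 509, 8809 and 1453 without arrays 1 to 4. With 4 arrays, no dye swap and related copies, probes near the threshold are the least certain.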

Other observations

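Of the probes that carry another name on the array, 3 belong to genes now named Cyp2 and were no members. BC018285 (now Cyp2d34) was higher in all 4 livers labelled Plin2-ASO than in any control liver, with log2 ratios of 0.67, 0.73, 0.88 and 0.23 (0.63 ± 0.15, adjusted p = 0.0416 by limma). With array 1 or array 2 left out its adjusted p was 0.215 and 0.214. The probe 9030605E09Rik (now Cyp2d12) did not pass (0.73 ± 0.20, adjusted p = 0.0667), nor did F730023N20 (now Cyp2ab1), measured on 3 arrays (0.26 ± 0.19, adjusted p = 0.422).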
